A study of Homo sapiens with 6 samples.

Results

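The genes described here encode the proteins of the mitochondrial ribosome, in cells labelled MDA-MB-231 that bound FABP4 and in cells labelled as the same line that did not. They were chosen by symbol: MRPL or MRPS followed by a number and at most 1 letter, with pseudogene symbols left out. Of the 58051 genes in the deposited table, 78 met this rule, 49 named MRPL for the large subunit and 29 named MRPS for the small subunit. MDA-MB-231 is an established human breast cancer line, and FABP4 is a fatty acid carrier protein best known from fat cells and macrophages. The FABP4 binding group was the fraction sorted by flow cytometry after staining with recombinant human FABP4 that carried the dye FITC, and the FABP4 non-binding group was the fraction without that stain. Both groups were labelled wild type, shared the cell sorting as their treatment and had 3 libraries each of total RNA depleted of ribosomal RNA. By these labels, the groups are fractions of 1 cultured line told apart by the binding of an added protein. Markers of epidermal keratinocytes were present in both groups too, as given below. Nothing in the labels says that replicates were cultured or sorted apart. The p-values therefore measure variation among these 6 libraries only, and that variation may be technical.

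The mitochondrial ribosome, or mitoribosome, translates the few messenger RNAs made from the mitochondrial genome, all of which encode subunits of the respiratory chain and the ATP synthase. Its ribosomal RNAs come from mitochondrial DNA, whereas every one of its proteins is encoded in the nucleus, made in the cytosol and imported. Many of these proteins have bacterial counterparts, and others occur only in mitochondria. The large subunit joins amino acids and the small subunit reads the messenger RNA.

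Messenger RNA of the mitoribosome was higher in FABP4 binding cells as a family, by a modest factor that was similar for both subunits. Of the 78 genes, 37 (47.4%) rose and 0 fell at an adjusted p of 0.05, by limma on log2(TPM + 1) with Benjamini-Hochberg adjustment over all 15574 tested genes. Among all tested genes 19.6% rose and 7.12% fell, and among the 8934 other protein-coding genes within the same range of mean level 27.3% rose. TPM are a relative unit that divides reads by transcript length and by the library's sum. All 78 genes passed the filter of 1 TPM in 3 libraries, and 57 had an unadjusted p under 0.05 by limma. In either direction, 6963 of all 15574 tested genes and 4722 of those 8934 protein-coding genes had one too. The other 41 members were not past the threshold, which does not show that they were alike in both groups. MRPS6, MRPS22 and MRPL50 lay just inside it, with adjusted p of 0.0498, 0.0495 and 0.0489 by limma. MRPS24, MRPS35 and MRPS15 lay just outside, with adjusted p of 0.0502, 0.0508 and 0.0509.

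All 78 had a higher mean TPM in the FABP4 binding group, where 68.1% of all tested genes did, although MRPL13 and MRPS30 turned below 0 once libraries were scaled to a common median or quantile normalized. The 3 binding libraries all lay above the 3 non-binding libraries for 59 of the 78 genes (75.6%), and for 38.6% of all tested genes. Among the 8934 other protein-coding genes within the same range of mean level, 51.4% did so and 78.0% had a higher mean in the binding group. Fold changes of the means ran between 1.20 and 2.54 with a median of 1.67. They reached 2 for 3 genes, lay at 1.5 to 2 for 59 and were smaller for 16. The median difference in log2(TPM + 1), a scale that shrinks the change of weakly expressed genes, was 0.70. The median over all tested genes was itself 0.36, so the family lay 0.35 above it, and 75 of the 78 members were above it. Over the protein-coding genes within the same range of mean level the median was higher, at 0.48. These are bulk samples, in which fewer cells of a type and less RNA per cell cannot be told apart.

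**Figure D1:**
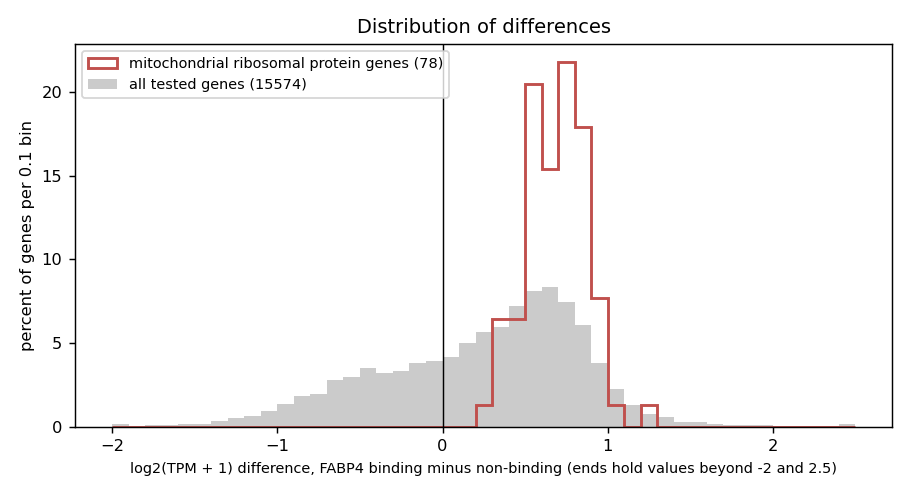
Distribution of log2(TPM + 1) differences, FABP4 binding minus FABP4 non-binding, as percent of genes per bin, for the 78 mitochondrial ribosomal protein genes (red outline) and all 15574 tested genes (grey). The family lies between 0.24 and 1.24, to the right of 0 throughout, while the tested genes spread to both sides.

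Several facts of the libraries bear on these values. Depth is unknown, since TPM keep none, and between 15300 and 15945 genes had at least 1 TPM. FABP4 binding replicate 1 had the highest value of the 6 libraries for 74 of the 78 genes, and the lowest value was in a FABP4 non-binding library for all 78. Without that library 23 members rose, against 13.5% of all tested genes, and the family's median difference was 0.51. Without FABP4 non-binding replicate 1, 20 rose, against 10.6% of all tested genes. Without FABP4 non-binding replicate 2 or 3, limma called 0 members, with smallest adjusted p of 0.0525 and 0.0523. In those fits 45 and 49 members had an unadjusted p under 0.05 by limma. With all 6 libraries 57 members did, as did 6963 of all 15574 tested genes. At the adjusted p of 0.05, 2.17% and 0.995% of all tested genes rose without FABP4 non-binding replicate 2 or 3. All 78 differences stayed above 0 in each of these fits that left out 1 library. Scaling to a common median left 8 members called, against 6.18% of all tested genes, with a family median of 0.38.

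Markers of another cell type moved with the groups too. Of 12 epidermal keratinocyte markers, 9 fell and 0 rose in the FABP4 binding group. Their summed level was 1638 to 2917 TPM in binding libraries, lowest in replicate 1, and 3733 to 5270 TPM in non-binding libraries, with none at 0. Markers of the MDA-MB-231 line summed to 3856 to 4663 TPM in binding libraries and 2405 to 2551 TPM in non-binding libraries, and 3 of 6 rose. These were AXL, LGALS1 and CD44. LGALS1 was the largest part of each sum, averaging 2675 TPM with binding against 1373 TPM without it. VIM averaged 930.7 TPM against 830.3 TPM and was not past the threshold (difference 0.16, limma adjusted p = 0.295). Neither was SPARC, whose groups overlapped (difference 0.21, limma adjusted p = 0.43), nor ZEB1 (difference 0.56, limma adjusted p = 0.106). VIM and SPARC lay below the median of all tested genes, 0.36. Luminal markers, of which 3 of 5 tested rose and ESR1 was listed at 0 throughout, summed to 610 to 712 TPM in binding libraries and 318 to 348 TPM in non-binding libraries. Fibroblast markers summed to 26.0 to 61.2 TPM in binding libraries and 31.4 to 56.3 TPM in non-binding libraries, and 1 of 5 rose. Leukocyte, endothelial and adipocyte markers stayed under 25 TPM in sum in every library. The part of these shifts in the mitoribosome result was not tested.

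Promoters of the family are shown to describe short sequences near the starts of its members, which some members hold and others lack. Whether these sequences bear on the levels was not tested. RefSeq promoters (GRCh38.p14) cover 250 bases before to 50 bases after the start, and 69 of the 78 members were found there. The 7-letter core CCGGAAG bound by ETS family factors, searched on both strands, lay in 29 of 69 (42.0%), in 10.7% of all 27305 promoters and in 19.4% of the 9818 promoters of tested genes. The bases below are the 120 just before each RefSeq start, read 5′ to 3′ on the gene's strand, with CCGGAAG or its reverse complement CTTCCGG in capitals. MRPS31, MRPS10, MRPS34, MRPL40, MRPL3 and MRPL51 are members with large differences or high levels that carry it, and MRPS14 is one with a large difference that does not. These 7 were picked after their values were seen, and do not reflect the share of members that carry it. MRPL11, MRPL12, MRPL41 and MRPL24, with large differences or high levels, lack it as well and are not shown. MRPS16 and MRPS26 carry it and are not shown either.
MRPS31, chr13:40771191-40771310, minus strand: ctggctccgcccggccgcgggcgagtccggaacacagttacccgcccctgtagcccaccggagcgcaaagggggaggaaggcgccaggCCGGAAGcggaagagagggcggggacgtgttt
MRPS10, chr6:42217862-42217981, minus strand: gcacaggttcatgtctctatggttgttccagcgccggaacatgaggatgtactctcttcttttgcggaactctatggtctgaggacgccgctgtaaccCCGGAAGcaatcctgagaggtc
MRPS34, chr16:1773135-1773254, minus strand: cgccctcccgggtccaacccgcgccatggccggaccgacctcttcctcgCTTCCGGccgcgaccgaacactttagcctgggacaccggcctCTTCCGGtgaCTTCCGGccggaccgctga
MRPL40, chr22:19432425-19432544, plus strand: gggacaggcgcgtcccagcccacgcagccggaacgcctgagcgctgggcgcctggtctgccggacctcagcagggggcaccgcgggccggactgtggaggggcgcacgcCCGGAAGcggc
MRPL3, chr3:131502972-131503091, minus strand: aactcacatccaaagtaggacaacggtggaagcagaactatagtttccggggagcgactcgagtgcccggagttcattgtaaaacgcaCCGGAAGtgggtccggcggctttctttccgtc
MRPL51, chr12:6493263-6493382, minus strand: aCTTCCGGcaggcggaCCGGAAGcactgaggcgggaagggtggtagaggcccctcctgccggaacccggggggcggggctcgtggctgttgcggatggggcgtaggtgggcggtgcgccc
MRPS14, chr1:175023426-175023545, minus strand: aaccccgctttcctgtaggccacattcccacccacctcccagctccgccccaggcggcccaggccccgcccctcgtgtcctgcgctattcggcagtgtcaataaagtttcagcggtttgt

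In MRPS31 the match begins 32 bases before the start, in MRPS10 22, in MRPL40 11 and in MRPL3 32 bases before it. MRPS34 holds 3 matches, beginning 71, 29 and 19 bases before its start, and MRPL51 holds 2, at 119 and 104 bases. Within 50 bases of the start on either side, CCGGAAG was present in 24 member promoters (34.8%) and in 11.5% of tested genes' promoters. The core AAGATGG, bound by YY1, was present in 23 member promoters (33.3%), in 6.06% of all promoters and in 7.72% of tested genes' promoters. Either core was present in 43 (62.3%) and both in 9, against 25.3% of tested genes' promoters with either, and no ETS match overlapped a YY1 match.

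For 4 other cores the members' shares did not exceed those of tested genes. The core bound by NRF1 was in 8 member promoters (11.6%), in 6.28% of all promoters and in 11.7% of tested genes' promoters. For GGGCGG, the core of SP and KLF factors, the shares among members, all promoters and tested genes' promoters were 60.9%, 44.6% and 70.7%, and 1 member promoter had it overlapping an ETS match. In the same order they were, for the E-box CACGTG, 8.70%, 7.43% and 10.2%, while CCAAT was in 20 of 69 member promoters, in 35.7% of all promoters and in 36.6% of tested genes' promoters. Of members with CCGGAAG, 17 of 29 rose with a median difference of 0.74, and of those without it 16 of 40 rose with a median of 0.64. For AAGATGG the counts were 12 of 23 and 21 of 46, and the medians 0.70 and 0.71. A match describes letters in a window and not a factor's binding.

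Among MRPL genes, those for 3 proteins of the stalk, the flexible arm that recruits translation factors, were among the 5 with the largest rise. MRPL11 (ENSG00000174547, chromosome 11, 66435075 to 66466738 in hg38) forms the base of the stalk. It had 56.1, 37.1 and 32.6 TPM in the FABP4 binding libraries, against 16.4, 18.7 and 24.3 TPM in the non-binding libraries. Its groups did not overlap, and its mean of 41.9 ± 12.5 TPM was 2.12 times the 19.8 ± 4.096 TPM of non-binding cells (SD, n = 3 each). The log2 difference was 1.02 with a standard error (SE) of 0.24 (limma adjusted p = 0.0239). MRPL10, the stalk protein that anchors the copies of MRPL12, had 64.8, 49.8 and 48.1 TPM in binding libraries, against 30.9, 27.5 and 26.2 TPM in non-binding libraries. Here too every binding library exceeded every non-binding one, by a log2 difference of 0.91 with an SE of 0.17 (limma adjusted p = 0.0153). MRPL12 had 142, 72.4 and 80.01 TPM in binding libraries, against 48.97, 46.2 and 55.8 TPM in non-binding libraries. Binding replicate 1 stood well above the other binding libraries, and the groups did not overlap. The difference was 0.89 with an SE of 0.25 (limma adjusted p = 0.0358).

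Of the 21 large-subunit proteins found only in mitochondria 8 rose (38.1%, against 19.6% of all tested genes), 3 of which are described here. MRPL40 had 33.1, 26.4 and 28.7 TPM in binding libraries, against 14.6, 10.1 and 20.2 TPM in non-binding libraries, a difference of 0.97 with an SE of 0.24 (limma adjusted p = 0.0284). Its groups did not overlap, and non-binding replicate 2 was the lowest. MRPL41 had 148, 110.5 and 103 TPM in binding libraries, against 81.7, 65.7 and 49.7 TPM in non-binding libraries (difference 0.88, SE 0.22, limma adjusted p = 0.0269). MRPL51, the most abundant large-subunit messenger RNA, had 226, 152 and 140.5 TPM in binding libraries, against 95.3, 84.7 and 99.6 TPM in non-binding libraries. Its difference was 0.86 with an SE of 0.19 (limma adjusted p = 0.0219). Neither MRPL41 nor MRPL51 overlapped between groups, and binding replicate 1 was highest for both.

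MRPL3 and MRPL24, which have bacterial counterparts that bind the large ribosomal RNA, completed the abundant group. MRPL3 had 159, 125 and 106 TPM in binding libraries, against 80.9, 52.2 and 81.3 TPM in non-binding libraries (difference 0.86, SE 0.22, limma adjusted p = 0.0291). MRPL24 had 173, 108 and 111 TPM in binding libraries, against 95.2, 66.8 and 71.3 TPM in non-binding libraries (difference 0.72, SE 0.22, limma adjusted p = 0.0441). The groups were apart for both genes, with non-binding replicate 2 lowest. At the other end stood MRPL13, with 28.9, 20.2 and 21.4 TPM in binding libraries, against 17.9, 20.3 and 20.6 TPM in non-binding libraries. These groups overlapped, and the difference of 0.24 with an SE of 0.18 was not past the threshold (limma adjusted p = 0.330). MRPL55, a mitochondria-specific protein, had 16.1, 16.1 and 9.15 TPM in binding libraries, against 14.4, 7.79 and 8.89 TPM in non-binding libraries. It overlapped as well, with a difference of 0.38 and an SE of 0.29 (limma adjusted p = 0.335).

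**Figure D2:**
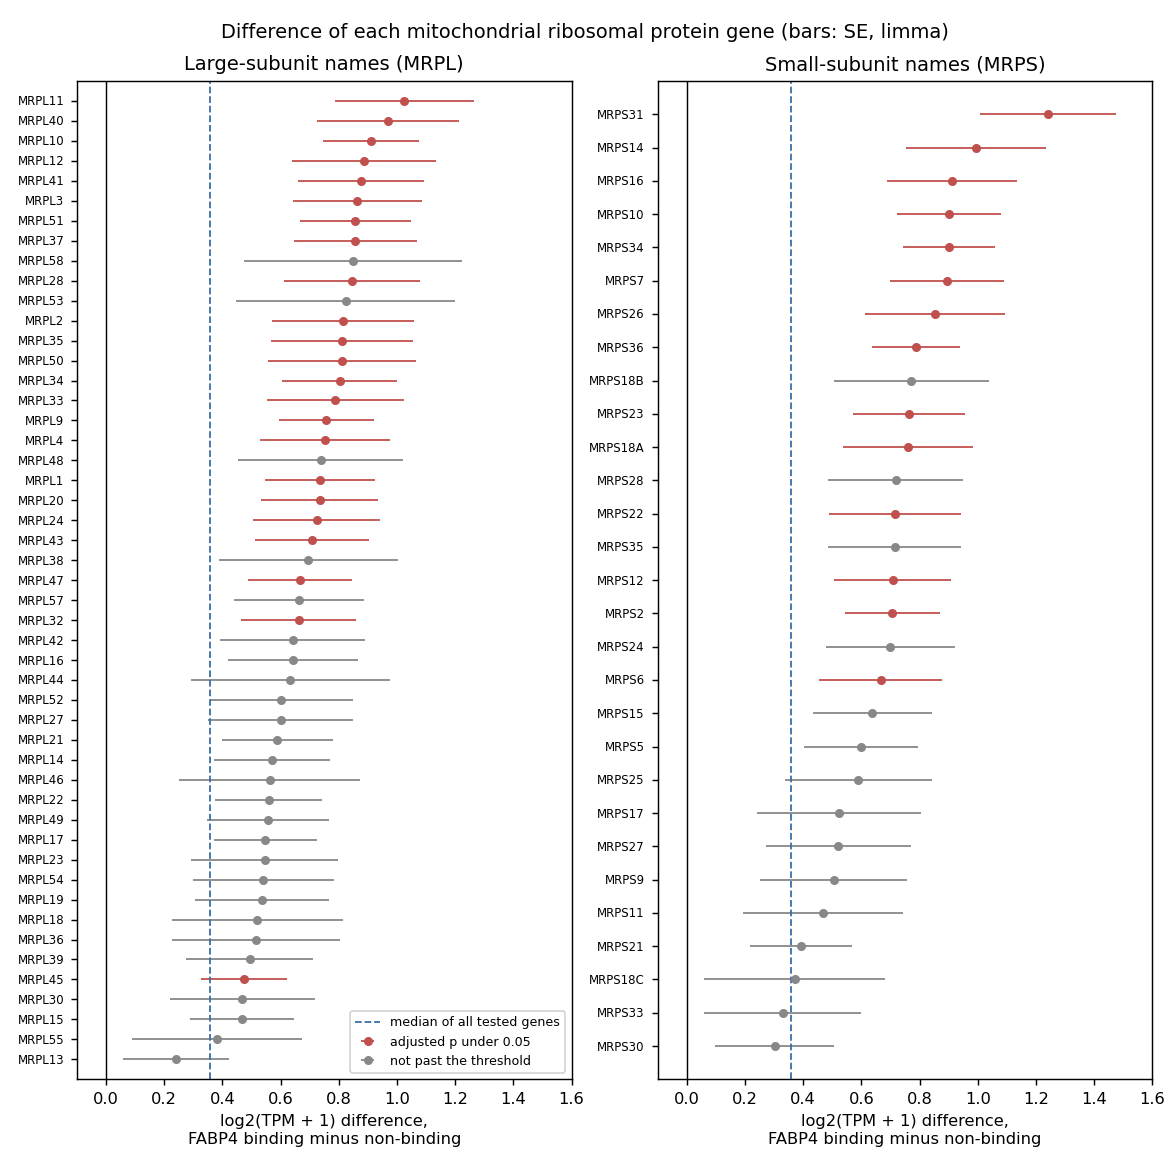
Difference of each MRPL gene (left) and MRPS gene (right) in log2(TPM + 1), FABP4 binding minus FABP4 non-binding, with bars for the SE from limma, red where the adjusted p was under 0.05 and a dashed line at the median of all tested genes. Every point lies above 0, between 0.24 for MRPL13 and 1.24 for MRPS31.

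In the small subunit the largest log2 difference as fitted belonged to MRPS31 (ENSG00000102738, chromosome 13, 40729135 to 40771173 in hg38), a protein without a bacterial counterpart. MRPS31 had 35.3, 21.04 and 23.02 TPM in binding libraries, against 9.03, 9.76 and 12.5 TPM in non-binding libraries. Every binding library was above every non-binding one, and the mean of 26.4 ± 7.71 TPM was 2.54 times the 10.4 ± 1.81 TPM of non-binding cells (SD, n = 3 each). The log2 difference was 1.24 with an SE of 0.23 (limma adjusted p = 0.0158), which lay 0.88 above the median of all genes. MRPS34, another mitochondria-specific protein, mutated in a form of Leigh syndrome, had 177, 136 and 141 TPM in binding libraries, against 86.7, 69.3 and 85.3 TPM in non-binding libraries. The groups were far apart, and its adjusted p of 0.0143 by limma was the smallest among the 78 genes (difference 0.90, SE 0.16). MRPS26, with the highest mean level of the family, had 239, 148 and 139 TPM in binding libraries, against 109.9, 72.8 and 103 TPM in non-binding libraries. It did not overlap either, and differed by 0.85 with an SE of 0.24 (limma adjusted p = 0.0373).

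Of the 16 small-subunit proteins with bacterial counterparts 7 rose (43.8%, against 19.6% of all tested genes), 3 of which are described here. MRPS14 had 26.4, 15.4 and 16.2 TPM in binding libraries, against 10.5, 8.66 and 7.83 TPM in non-binding libraries, a 2.15-fold difference of means. Its groups did not overlap (log2 difference 0.99, SE 0.24, limma adjusted p = 0.0259). MRPS16, whose loss causes a human deficiency of oxidative phosphorylation, had 133, 81.9 and 73.3 TPM in binding libraries, against 51.8, 44.9 and 50.2 TPM in non-binding libraries (difference 0.91, SE 0.22, limma adjusted p = 0.0266). MRPS10 had 182, 123 and 124 TPM in binding libraries, against 81.4, 69.6 and 73.6 TPM in non-binding libraries (difference 0.90, SE 0.18, limma adjusted p = 0.0174). For both, the lowest binding library was above the highest non-binding one. Reads counted without strand cannot part MRPS14 from CACYBP on the opposite strand, and exons of MRPS16 overlap those of DNAJC9 on the same strand. The library's strandedness is not stated in the labels. Mean levels of CACYBP were 67.0 TPM in binding libraries against 42.5 TPM in non-binding libraries, and those of DNAJC9 were 26.6 TPM against 13.4 TPM.

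The smallest differences among MRPS genes were those of MRPS30 and MRPS33. MRPS30, which structures place in the large subunit despite its name, had 16.6, 16.2 and 15.7 TPM in binding libraries, against 16.5, 13.1 and 9.96 TPM in non-binding libraries. The binding libraries were close to each other and one non-binding library lay among them, so the groups overlapped (difference 0.30, SE 0.20, limma adjusted p = 0.276). MRPS33, a mitochondria-specific protein, had 18.3, 10.4 and 8.74 TPM in binding libraries, against 10.5, 8.38 and 9.06 TPM in non-binding libraries. Only binding replicate 1 stood out, and the difference of 0.33 with an SE of 0.27 was not past the threshold (limma adjusted p = 0.368).

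MRPS18A, MRPS18B and MRPS18C are paralogs of 1 bacterial small-subunit protein, of which MRPS18A sits in the large subunit and the others in the small one. MRPS18A had 95.8, 55.7 and 59.1 TPM in binding libraries, against 41.7, 34.3 and 44.00 TPM in non-binding libraries, and rose without overlap (difference 0.76, SE 0.22, limma adjusted p = 0.0409). MRPS18B had 148, 87.1 and 83.2 TPM in binding libraries, against 80.4, 51.7 and 50.5 TPM in non-binding libraries. Its groups were apart as well, with a difference of 0.77, but an SE of 0.27 left it short of the threshold (limma adjusted p = 0.0611). MRPS18C had 13.2, 7.84 and 7.68 TPM in binding libraries, against 10.5, 4.79 and 6.53 TPM in non-binding libraries. This least abundant paralog overlapped between groups (difference 0.37, SE 0.31, limma adjusted p = 0.377). Whether the paralogs differ from each other in their response was not tested.

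**Figure D3:**
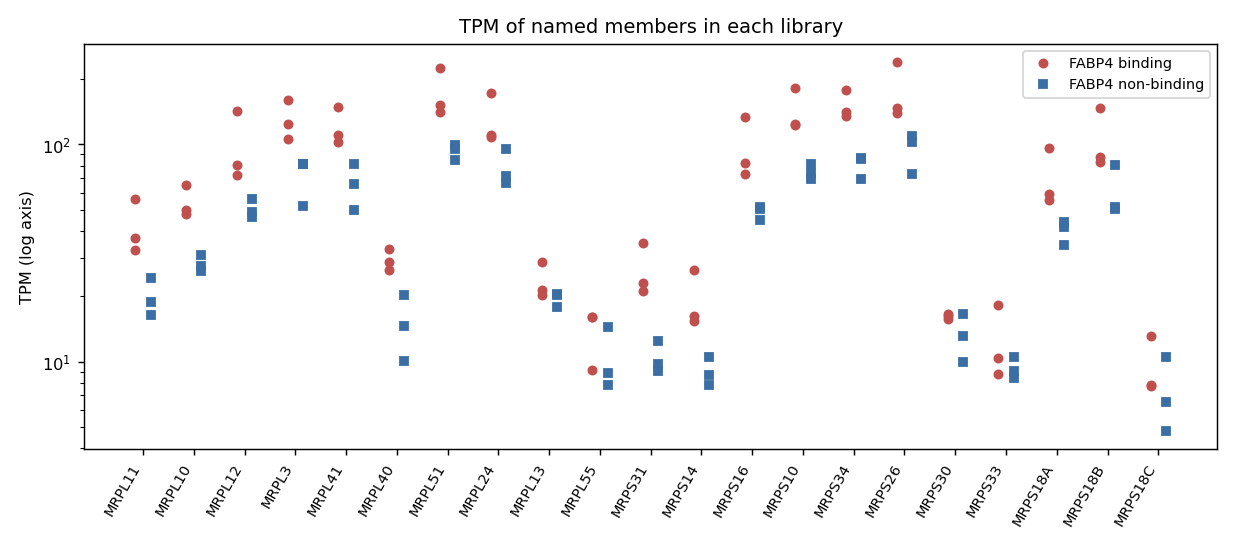
TPM on a log axis of the named MRPL and MRPS genes in each library, FABP4 binding (red circles) left of FABP4 non-binding (blue squares). Binding libraries lie above non-binding ones for most genes, while MRPL13, MRPL55, MRPS30, MRPS33 and MRPS18C overlap.

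Similar shares of the genes of each subunit rose. Of the MRPL genes 23 of 49 (46.9%) rose, with a median difference of 0.67, and of the MRPS genes 14 of 29 (48.3%) rose, with a median of 0.71. Groups did not overlap for 37 MRPL (75.5%) and 22 MRPS genes (75.9%), with binding higher. The share was 38.6% for all tested genes and 51.4% for other protein-coding genes within the same range of mean level. With MRPS30 and MRPS18A counted in the large subunit, and MRPS36 set aside because it was assigned to the oxoglutarate dehydrogenase complex, the counts were 24 of 51 and 12 of 26. MRPS36 rose too, with 34.1, 29.2 and 31.6 TPM in binding libraries, against 18.8, 16.4 and 18.5 TPM in non-binding libraries (difference 0.79, SE 0.15, limma adjusted p = 0.0162). It was named after its values were seen. Medians by origin lay close together. In the large subunit, 16 of 30 genes with a bacterial counterpart rose (median 0.66) and 8 of 21 mitochondria-specific ones (median 0.70). In the small subunit the counts were 7 of 16 (median 0.68) and 5 of 10 (median 0.74). Among all tested genes 19.6% rose, with a median of 0.36.

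Summed over genes, MRPL messenger RNA came to 3475, 2315 and 2262 TPM in binding libraries, against 1767, 1467 and 1584 TPM in non-binding libraries. MRPS messenger RNA came to 1777, 1204 and 1165 TPM in binding libraries, against 864, 705 and 794.5 TPM in non-binding libraries. The means were 1.67-fold and 1.75-fold higher in binding cells, and binding replicate 1 was far above the other libraries in both sums. The ratio of the MRPL sum to the MRPS sum was 1.96, 1.92 and 1.94 in binding libraries, against 2.045, 2.08 and 1.99 in non-binding libraries. These ratios did not overlap, with means of 1.94 ± 0.0164 in binding and 2.04 ± 0.0432 in non-binding cells (SD, n = 3 each). With genes placed by structure they were 2.20, 2.165 and 2.21 in binding libraries, against 2.32, 2.36 and 2.27 in non-binding libraries. The ratio is a score over the members and was not tested. All members together made up 0.525, 0.352 and 0.343 percent of TPM in binding libraries, against 0.263, 0.217 and 0.238 percent in non-binding libraries.

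**Figure D4:**
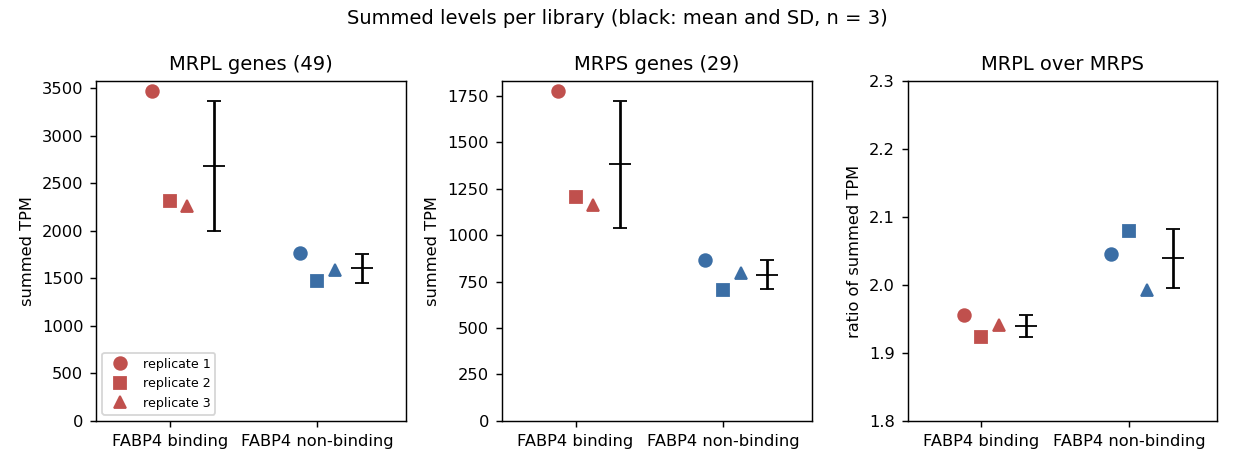
Summed TPM of the 49 MRPL genes (left), of the 29 MRPS genes (middle) and their ratio (right, axis not starting at 0) in each library, FABP4 binding left of FABP4 non-binding, with the mean and SD (n = 3) in black. Both sums are highest in binding replicate 1, and the 3 binding ratios, 1.92 to 1.96, lie below the 3 non-binding ratios, 1.99 to 2.08.

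Levels within the family spanned 41.9-fold, between 3.22 TPM for MRPL46 and 135 TPM for MRPS26 as means over the 6 libraries, with a median of 31.4 TPM. The order of the 78 levels was nearly the same in both groups (Spearman rho 0.987 across genes, which share libraries and are not independent). More of the abundant members were called. Of the 39 with the higher levels 26 rose, with a median difference of 0.75, and of the 39 with the lower levels 11 rose, with a median of 0.63. Across members the rho between level and difference was 0.38.

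The 5 mitoribosome proteins with other symbols had higher means in binding cells too, and 2 rose. Among all tested genes 68.1% had a higher mean and 19.6% rose. AURKAIP1, a small-subunit protein found only in mitochondria, had 163, 89.2 and 106 TPM in binding libraries, against 71.3, 52.3 and 66.1 TPM in non-binding libraries (difference 0.87, SE 0.23, limma adjusted p = 0.0328). GADD45GIP1, a large-subunit protein, had 95.2, 57.2 and 67.8 TPM in binding libraries, against 47.5, 43.6 and 48.05 TPM in non-binding libraries (difference 0.62, SE 0.19, limma adjusted p = 0.0488). Both were without overlap. DAP3, a GTP-binding protein of the small subunit also named for apoptosis, had 57.4, 38.96 and 44.8 TPM in binding libraries, against 36.8, 29.8 and 37.7 TPM in non-binding libraries (limma adjusted p = 0.118). PTCD3, an RNA-binding small-subunit protein, and CHCHD1, which contains a twin cysteine domain, differed by 0.52 and 0.59 (limma adjusted p of 0.119 and 0.0887). None of these 3 was past the threshold, although their groups were apart, as were those of 38.6% of all tested genes with binding higher.

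The ribosomal RNAs around which these proteins assemble were both higher in binding cells. MT-RNR1, of the small subunit, had 1506, 1128 and 1264 TPM in binding libraries, against 617, 613 and 415 TPM in non-binding libraries (difference 1.26, SE 0.19, limma adjusted p = 0.0123). For MT-RNR2, of the large subunit, levels were 10940, 9549 and 10540 TPM in binding libraries, against 2647, 2877 and 2360 TPM in non-binding libraries. Both sets of libraries were far apart, and binding replicate 1 stood less apart here than among the proteins. The libraries were depleted of ribosomal RNA, so these are the levels left after that step. Transcripts of the mitochondrial genome took 10.5 ± 0.668 percent of TPM in binding and 3.14 ± 0.208 percent in non-binding libraries (SD, n = 3 each).

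Factors that build or serve the mitoribosome were described by lists chosen for their function. Of 28 assembly factors, 6 rose (21.4%) and 0 fell, with a median difference of 0.50, so their share was near the 19.6% of all genes. TRMT2B, which methylates uridine in mitochondrial RNA, had 13.7, 11.6 and 8.94 TPM in binding libraries, against 5.91, 6.39 and 4.14 TPM in non-binding libraries (difference 0.94, SE 0.24, limma adjusted p = 0.0285). MTG2, a GTPase of large-subunit assembly, had 37.3, 23.1 and 23.4 TPM in binding libraries, against 12.4, 14.3 and 15.8 TPM in non-binding libraries (difference 0.91, SE 0.22, limma adjusted p = 0.0262). Both pairs of groups were apart. NDUFAB1, the mitochondrial acyl carrier protein, was the one assembly factor with a lower mean in binding cells (difference -0.23, limma adjusted p = 0.186), named after its values were seen.

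Among 16 translation factors 7 rose (43.8%) and 0 fell, with a median difference of 0.70, against 19.6% of all tested genes that rose and 7.12% that fell. MTIF3, an initiation factor, had 22.3, 14.9 and 15.1 TPM in binding libraries, against 5.48, 3.23 and 12.1 TPM in non-binding libraries. The groups did not overlap, but the non-binding libraries were scattered (difference 1.35, SE 0.39, limma adjusted p = 0.040). TACO1, an activator of translation of a cytochrome oxidase subunit, had 49.7, 29.1 and 32.8 TPM in binding libraries, against 23.8, 16.1 and 18.7 TPM in non-binding libraries (difference 0.88, SE 0.24, limma adjusted p = 0.0336).

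Other families of similar standing give a scale for the result. For complex I, the respiratory chain's largest complex, 37 genes were taken by symbol, NDUF followed by 1 letter and a number. Of these 21 rose (56.8%) and 1 fell, with a median difference of 0.70. NDUFAB1, described above, falls outside that symbol rule. Of 82 tested cytosolic ribosomal protein genes, 42 rose (51.2%) and 7 fell, with a median of 0.46. Summed cytosolic ribosomal protein messenger RNA was 87210, 77940 and 75050 TPM in binding libraries, against 75340, 75030 and 74780 TPM in non-binding libraries. Whether the mitochondrial family differed from either in its response was not tested.

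Pseudogenes and neighbouring genes can share reads with members. The table holds 75 pseudogene rows named after 34 members, of which 55 were listed at 0 in every library. Summed over all of them, pseudogene TPM were 33.0, 30.8 and 38.5 in binding libraries, against 52.7, 41.0 and 48.0 in non-binding libraries. Without MRPS18BP2 and MRPS5P3, left out after their values were seen, the sums were 26.5, 15.9 and 19.9 TPM in binding libraries, against 20.9, 13.05 and 14.6 TPM in non-binding libraries. The binding libraries were thus lower in the full sum, without overlap, and overlapped with the non-binding ones without these 2 rows. Of 6 pseudogenes tested 0 rose and 1 fell. This was MRPS5P3, with 0, 0 and 3.47 TPM in binding libraries, against 9.63, 5.21 and 16.0 TPM in non-binding libraries (limma adjusted p = 0.0244). MRPS18BP2 had 6.54, 14.9 and 15.2 TPM in binding libraries, against 22.1, 22.8 and 17.5 TPM in non-binding libraries (limma adjusted p = 0.0822). With pseudogene TPM added to the parent gene, 35 of 78 members rose, and the difference of MRPS5 turned below 0. MRPS31 has 4 pseudogene rows, averaging 5.63 TPM in sum. With these added its difference was 1.00 in place of 1.24, below the 1.02 of MRPL11. Of the 44 members without a pseudogene row 20 rose.

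Exons of 41 members overlap those of another annotated gene, on the opposite strand for 29 and on the same strand for 16. Of the 37 members with no such overlap 15 rose. Of the members named above, besides MRPS14 and MRPS16, MRPL51 overlaps NCAPD2, MRPL11 overlaps PELI3 and MRPL13 overlaps MTBP, all on the opposite strand. So do MRPS18C with ABRAXAS1, MRPS18A with RSPH9, and MRPS22 with COPB2, PRR23A and AC024933.1. Same-strand overlaps are those of MRPS6 with SLC5A3 and AP000317.2, MRPS5 with ZNF514, MRPS24 with URGCP-MRPS24 and MRPL46 with AC013489.1. Mean levels of COPB2 were 118.7 TPM in binding libraries against 149.8 TPM in non-binding libraries, and those of SLC5A3 were 5.35 TPM against 4.33 TPM. MRPL12 overlaps AC139530.2 on the same strand, which was listed at 0. Mean levels of NCAPD2 were 73.3 TPM in binding libraries against 55.2 TPM in non-binding libraries, and those of PELI3 were 2.53 TPM against 1.94 TPM. MTBP had 3.38 TPM in binding libraries against 1.46 TPM in non-binding libraries, ABRAXAS1 3.83 TPM against 1.66 TPM and RSPH9 0.578 TPM against 0.112 TPM.

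Many members share a start region with another gene. A protein-coding gene on the opposite strand with its 5′ end within 1000 bases was found for 29 of the 78 members (37.2%), and for 17.5% of the 12050 tested protein-coding genes. Of the 24 partners tested, 4 rose (16.7%) and 1 fell, with a median difference of 0.46. The share that rose exceeded neither the 19.6% of all tested genes nor the 23.4% of tested protein-coding genes. The partners that rose were NDUFB5, NDUFS6, ZNF189 and TWNK, and 2 of them encode complex I subunits. The one that fell was TCP1, a subunit of the cytosolic chaperonin, whose 5′ end lies 63 bases from that of MRPL18. Mean levels of TCP1 were 280.3 TPM in binding libraries against 388 TPM in non-binding libraries (difference -0.47, limma adjusted p = 0.0242), while the difference of MRPL18 was 0.52 (limma adjusted p = 0.201). MRPL46 and MRPS11 are each other's partner, 34 bases apart, and differed by 0.56 and 0.47, neither past the threshold. The 5 partners that passed were named because of their result.

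The count of members called depended on the processing, as did the share of all genes called. With a pseudocount of 0.1 in place of 1, 35 members rose, against 18.9% of all tested genes. With no filter on low values 9 rose (5.12% of all), and with a filter of a mean of 5 TPM 49 of 76 members rose (32.4% of all). Common median scaling left 8 (6.18% of all) and quantile normalization 13 (7.69% of all), while rescaling without transcripts of the mitochondrial genome gave 52 (29.0% of all). Limma without a trend gave 12 (12.8% of all). In the fits without 1 library, the shares of all tested genes that rose were 13.5%, 14.0% and 11.9% without binding replicate 1, 2 or 3, where 23, 31 and 29 members rose. They were 10.6%, 2.17% and 0.995% without non-binding replicate 1, 2 or 3, where 20, 0 and 0 members rose. A fit with the replicate number as a block called 20.4% of all tested genes higher.

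**Figure D5:**
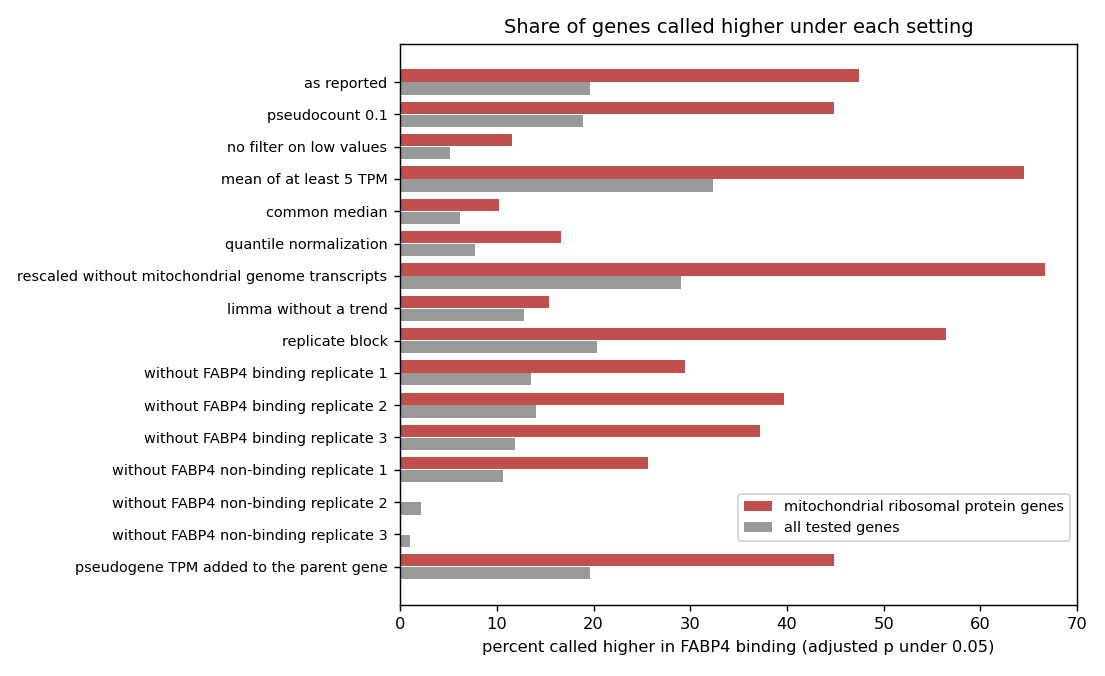
Percent of mitochondrial ribosomal protein genes (red) and of all tested genes (grey) called higher in FABP4 binding cells, at an adjusted p of 0.05 by limma, under each processing setting. The family's share is 47.4% as reported and 0 without FABP4 non-binding replicate 2 or 3.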

How the data were processed

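Total RNA of sorted MDA-MB-231 cells was freed of ribosomal RNA, fragmented, randomly primed and sequenced, per the labels' protocols. The authors deposited TPM per Ensembl gene, a unit recognised from the column sums, so depth is unknown and no counting interval was computed. The submitters' processing notes name hg38 as the build. The aligner, counting tool and gene annotation are not stated there or in the labels.

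Columns were matched to samples by the names in the labels. Genes reaching 1 TPM in 3 or more libraries entered limma 3.58.1 (R 4.3.3) as log2(TPM + 1), with an intensity trend and without covariates. P-values were adjusted by Benjamini-Hochberg, with a threshold of 0.05. The script was tested on simulated data. Gene types, positions and overlaps came from GENCODE 29, which held 99.0% of the identifiers, and promoters from RefSeq.

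The members and lists were chosen with earlier results of these data known. Genes were named by rule: in each of MRPL and MRPS the 5 largest rises and falls past the threshold, the 3 highest levels and the 2 differences nearest to 0, besides the MRPS18 paralogs, other subunits, ribosomal RNAs and the 2 largest changes in each factor list. Keratinocyte, luminal, leukocyte, fibroblast, endothelial, adipocyte and MDA-MB-231 markers were listed as well. Alternatives were other pseudocounts, filters, scalings, a replicate block and leaving out each library.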

Additional observations from a re-analysis of the deposited data

How the results depend on the processing

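The direction of every tested member held, apart from 3 settings. Under common median scaling and quantile normalization MRPL13 (-0.0789 and -0.0703) and MRPS30 (-0.0161 and -0.0359) turned below 0. The other 76 members stayed above 0 in both. With pseudogene TPM added to parents (chosen after seeing the data) MRPS5 turned below 0 and 77 members stayed above it. The number of members called did not hold. It was 9 with no filter on low values, 8 with a common median, 13 with quantile normalization and 12 with limma without a trend. For MRPL genes these were 3, 3, 6 and 5, and for MRPS genes 6, 5, 7 and 7. All tested genes called higher were 5.12%, 6.18%, 7.69% and 12.8% under the same settings. The cause was not tested. The 8 members called with a common median were MRPL10, MRPL11, MRPL51, MRPS7, MRPS10, MRPS31, MRPS34 and MRPS36. A filter of a mean of 5 TPM gave 49 of 76 members, and rescaling without mitochondrial genome transcripts gave 52. All tested genes called higher were then 32.4% and 29.0%.

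Leaving out 1 library gave 0 to 31 members, 0 to 19 MRPL genes and 0 to 12 MRPS genes, against 0.995% to 14.0% of all tested genes. Fewer samples then enter each fit. The median difference was 0.35 for MRPL genes with a common median and 0.50 to 0.78 without 1 library. For MRPS genes it was 0.39 with a common median, 0.40 with quantile normalization and 0.51 to 0.79 without 1 library. The difference in the ratio of MRPL to MRPS sums, binding minus non-binding, was -0.10 in all and -0.12 to -0.08 without 1 library.

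Assembly factors called higher were 2 with no filter, 11 with a mean of 5 TPM, 1 with a common median, 1 with quantile normalization, 12 when rescaled and 0 to 4 without 1 library. In the same order, 5.12%, 32.4%, 6.18%, 7.69% and 29.0% of all tested genes were called higher, and 0.995% to 14.0% without 1 library. Assembly factors called lower were 1 with a common median. Translation factors called higher were 1 with no filter, 1 with a common median, 2 with quantile normalization, 1 without a trend and 0 to 6 without 1 library. Other subunits called higher were 1 with a pseudocount of 0.1, 0 with no filter, 0 with a common median, 0 with quantile normalization, 0 without a trend and 0 to 2 without 1 library. All tested genes called higher were 18.9% with a pseudocount of 0.1 and 12.8% without a trend. These lists held 28 assembly factors, 16 translation factors and 5 other subunits.

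Over all tested genes, same-numbered libraries did not deviate together from their group means (correlations 0.0349, -0.0167 and 0.0284). With 3 libraries per group the deviations within a group are tied to each other. These correlations therefore cannot decide whether same-numbered libraries shared a culture or sort, which the labels do not state. A replicate block gave 44 members, 26 MRPL and 18 MRPS genes, against 20.4% of all tested genes. Depth, which limits the low members, is unknown.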
